A study of Zea mays with 6 samples.

Results

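The enzymes of glycolysis, of organic acid metabolism and of the oxidative pentose phosphate pathway were represented by 78 probe sets among the 12252 non-control probe sets of the authors' table. A probe set is a group of short probes against 1 transcript. Members were taken by name, where the gene title or the target description held 1 of 16 terms, such as hexokinase, enolase, pyruvate kinase or malic enzyme. For 14 of the terms a probe set was found, and for 2 (citrate synthase and the stem aconit, for aconitase) none was. The array carried 17734 probe sets in all, and those outside the authors' table have no title here, so further probe sets of these enzymes may exist. Of the members, 71 came from 42 transcript clusters, since several enzymes were measured by more than 1 probe set, and 7 had no cluster in the annotation. A further limit is that 12 were named only by similarity to an Arabidopsis protein. Both members with an off-pathway name were kept in the counts, namely a probe set similar to dihydroneopterin aldolase, an enzyme of folate synthesis, and one similar to phosphoglycerate dehydrogenase, an enzyme of serine synthesis.

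The samples were root tissue of maize (Zea mays, cultivar Nongda108) grown together with peanut (cultivar Luhua14), called intercropped here, with 3 samples. They were set against roots of maize grown alone, called monocropped, also with 3 samples. All plants were at the reproductive stage and grew in a greenhouse under natural light, in calcareous sandy soil with the same basal fertilizer, which held nitrogen, phosphorus, potassium, magnesium, copper and zinc. No genotype or chemical treatment differed between the groups, and nothing in the sources used here says whether a sample was 1 plant, 1 pot or a pool, so the p-values rest on the variation among 3 arrays a group and part or all of it could be technical.

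Glycolysis splits hexoses into pyruvate in the cytosol, and in roots it also supplies phosphoenolpyruvate and malate for organic acids that can be stored or released into the soil. Pyruvate enters mitochondria through the pyruvate dehydrogenase complex, or is fermented to ethanol when oxygen is short. In maize roots short of oxygen, cytosolic aldolase, enolase 1 and the cytosolic glyceraldehyde-3-phosphate dehydrogenases gpc3 and gpc4 belong to the small set of proteins still made, while gpc1, gpc2 and enolase 2 do not respond in that way. The oxidative pentose phosphate pathway draws on hexose phosphate to make NADPH, a reductant used among other things in nitrogen assimilation.

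The comparison asked which of these enzymes differed in RNA level between roots of maize grown with peanut and roots of maize grown alone. No member passed the test: limma called 0 of 78 at an adjusted p under 0.05, and 0% of the 13116 probe sets tested. At an unadjusted p under 0.05 limma gave 15 of the 78 members, of which 9 were lower in intercropped roots and 6 higher. The background was 11.1% of all tested probe sets, with 5.51% lower and 5.6% higher. None of these 15 had an adjusted p below 0.232 (limma). Signals of the 3 intercropped arrays all lay below the 3 monocropped ones for 9 members and all above them for 6. Among all tested probe sets these shares were 8.69% and 8.29%. Both conditions, an unadjusted p under 0.05 and groups apart, held for 13 members, against a background of 9.45%. These 13 are not 13 genes, because some share a transcript cluster. For 2 of the 13, gpa1 and the mutase-like probe set Zm.12849.1.A1_at, signals reached 50 in 1 group only. They entered the test only through the group in which they were high, so groups that differ were a condition of their being tested. Without such probe sets 13 of 76 members had an unadjusted p under 0.05 (8 lower and 5 higher), or 17.1%, against 10.7% of the 13031 others tested. Both conditions then held for 11 members, or 14.5%, against 8.98%. An exact permutation test of 1 probe set cannot go below p = 0.1 with 3 samples against 3. In the authors' deposited table SAM, a permutation-based test, gave 5 probe sets of all a q-value of 0, and 0 of the members. The lowest q-value of a member in the authors' deposited table was 17.3%, and 3 members had one below 20%, namely the probe sets of pgd2, of mdh6 and of the phosphoglycerate mutase similar to an Arabidopsis protein.

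Most differences were small. The median log2 difference (intercropped minus monocropped) was -0.10 over the 78 members, and 0.01 over all tested probe sets. Lower values in intercropped roots were found for 51 members and higher ones for 27, so that 65.4% were lower, against 48.1% of all tested probe sets. The difference exceeded 1 in size for 1 member and 0.5 for 10. The median member signal, relative to its mean over the 6 arrays, was 0.05, -0.08 and -0.13 (log2) on intercropped arrays 1, 2 and 3, against 0.08, 0.06 and -0.01 on monocropped arrays 1, 2 and 3. Intercropped array 1 therefore lay among the monocropped arrays, and the lower median came from intercropped arrays 2 and 3. Without intercropped replicate 1 the median was -0.17, and 23 members instead of 13 had an unadjusted p under 0.05 with groups apart. The same count was 6 without intercropped replicate 2, 6 without monocropped replicate 1 and 4 without monocropped replicate 2. These counts have no share over all tested probe sets beside them, so they do not show a change particular to the members. With fewer arrays in a group, groups also lie apart more easily. In a sample of whole root, fewer cells of a type and less RNA per cell cannot be told apart.

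**Figure D1:**
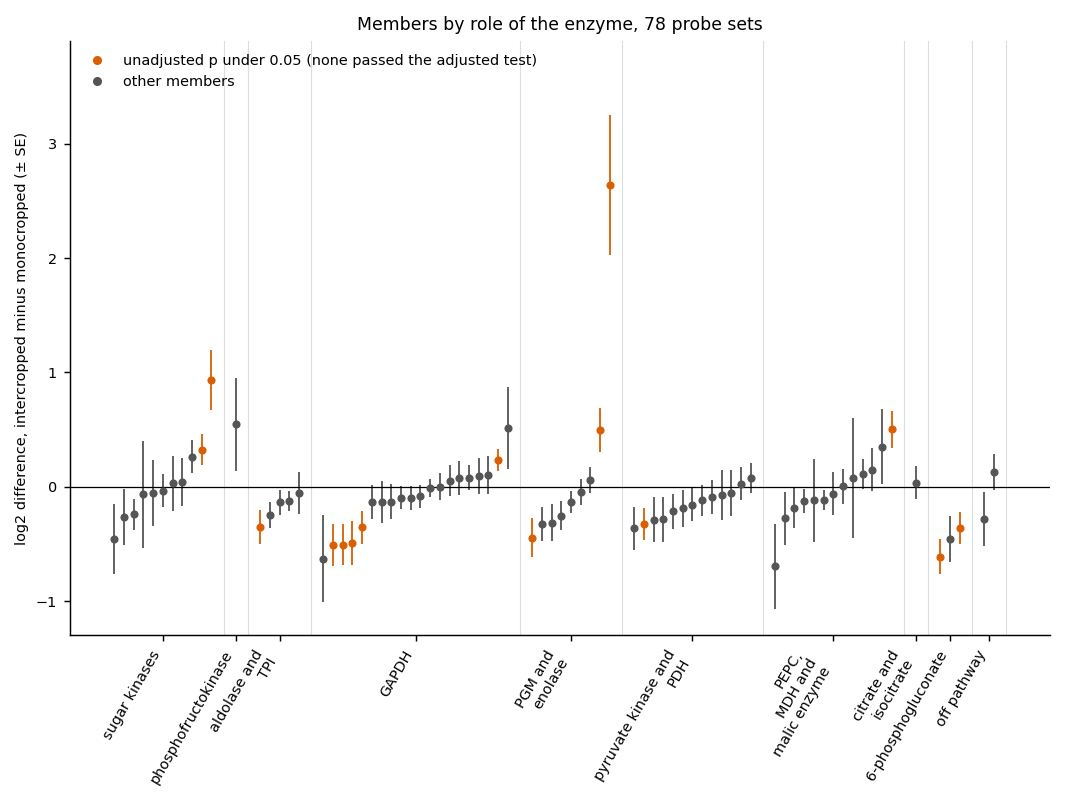
Log2 difference (intercropped minus monocropped) of each of the 78 members with its limma standard error, grouped by the role of the enzyme and sorted within each group. Orange points have an unadjusted p under 0.05, none passed the adjusted test, and 1 member, a probe set similar to phosphoglycerate mutase, stands apart at 2.64.

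**Figure D2:**
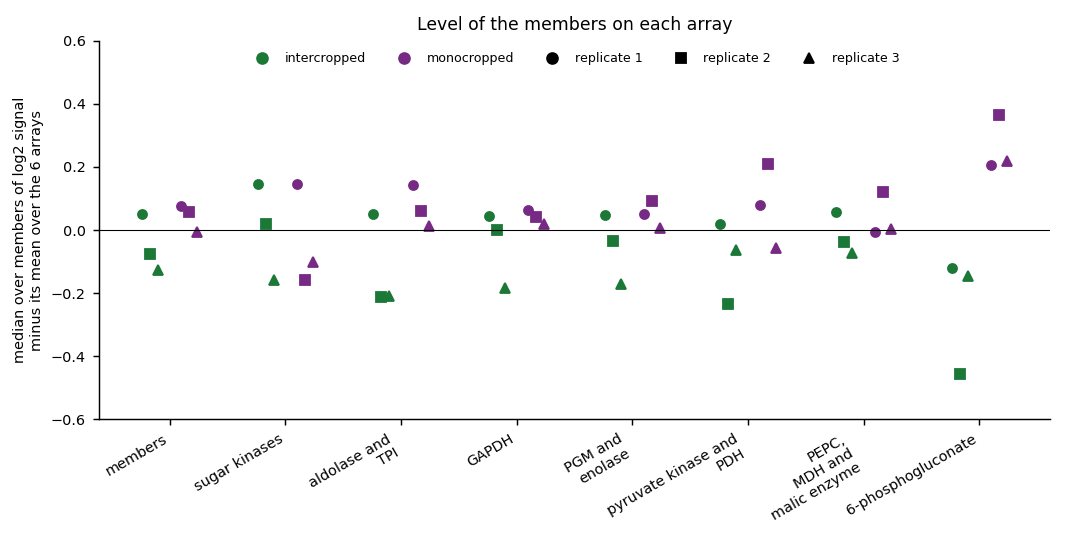
Median over the members, and over the members of each role, of the log2 signal minus its mean over the 6 arrays, with 1 point per array (green for intercropped, purple for monocropped, shape for the replicate number). The 3 enzymes of the 6-phosphogluconate step are the group in which all intercropped arrays lie well below all monocropped ones, and intercropped array 1 lies above the other 2 intercropped arrays in every group drawn.

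Median signals of the arrays were 134 to 142, and between 25.6% and 28.0% of all probe sets were below a signal of 50. The signals were already scaled, so similar medians do not show similar array quality. The spiked control BioB stood at 1117 on monocropped array 1 and between 132 and 438 on the other 5 arrays. All 78 members passed the filter (a signal of 50 or more on 3 or more of the 6 arrays), since no probe set of the authors' table fell short of it, and 73 reached 50 on all arrays. The lists of marker genes hold only probe sets of that table, so no listed marker is at 0. Genes listed as root markers (root cap genes, nicotianamine synthase and the iron transporter ys1) had 8 probe sets, 7 of them lower. The 1 that was higher (log2 difference 1.00) was the only one with an unadjusted p under 0.05 (limma). Summed signals were 1144 to 1775 on intercropped and 1637 to 2318 on monocropped arrays. Since the list holds genes of iron uptake, its sums are not a measure of root cells alone. Genes of green tissue had 13 probe sets, with sums of 1274 to 2159 and 1383 to 1658 on the intercropped and the monocropped arrays. Histones, cyclins and other genes listed for dividing cells had 56, of which 40 were lower (median log2 difference -0.13), with sums of 37994 to 46552 against 41198 to 48514. Many of the 56 share a transcript cluster, and those with one came from 25 clusters. An unadjusted p under 0.05 (limma) was found for 7.14%, against 11.1% of all tested probe sets. Of these, 3 were lower and 1, a D-type cyclin, was higher by 0.68 (log2). The list was made by name and includes histone H3.3 and H1-like names, so it is not a measure of dividing cells alone. Zeins and other seed genes had 11, with sums of 6928 to 7632 against 7598 to 7665. The lowest root marker sum was that of intercropped array 3, on which the probe sets with the symbols gpc3, gpc4 and eno1 were also lowest. Probe sets of the same clusters without a symbol were not lowest there, and Zm.2601.2.A1_at was highest on that array. The part of these lists in the results was not tested.

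The 3 enzymes that oxidise 6-phosphogluconate were the role group with the lowest median log2 difference (-0.46, all 3 lower), which was -0.29 without monocropped replicate 2. The cytosolic 6-phosphogluconate dehydrogenase pgd2 (Zm.506.1.A1_at) had signals of 566, 420 and 574 on the intercropped arrays, against 801, 819 and 741 on the monocropped arrays. The groups did not overlap, and the means were 520 ± 86.9 and 787 ± 40.9 (SD, n = 3 each). The difference was -0.61 ± 0.15 (log2, SE), with an adjusted p of 0.266 in limma. The second cytosolic form, listed as pdh1 (Zm.406.2.A1_a_at), had 606, 526 and 615 in intercropped roots, against 760, 847 and 646 in monocropped roots. Its groups were also apart, and they differed by -0.36 ± 0.14 (log2, adjusted p of 0.419 in limma). The gene pgd3 (Zm.507.1.A1_at), described as coding for a plastid form, had 877, 665 and 808 against 826, 1352 and 1090. It differed by -0.46 ± 0.20 (log2, adjusted p of 0.467 in limma), or -0.29 without monocropped replicate 2, and intercropped array 1 overlapped the lowest monocropped array.

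Hexokinases and fructokinases phosphorylate the hexoses that enter glycolysis, and hexokinase 1 of Arabidopsis is also a sugar sensor. Hexokinase probe sets were split, with 5 of 9 higher and 4 lower, and the largest difference was in a probe set with weak similarity to hexokinase 1 of Arabidopsis (Zm.7540.1.S1_at). Its signals were 310, 542 and 346 in intercropped roots, against 271, 167 and 185 in monocropped roots. All intercropped arrays were higher, and the difference was 0.93 ± 0.27 (log2, adjusted p of 0.287 in limma), which was 0.69 without intercropped replicate 2. A maize hexokinase gene (LOC542510) was measured by 4 probe sets that did not point 1 way. Its probe set Zm.5206.2.S1_a_at had 312, 327 and 284 in intercropped roots, against 226, 242 and 269 in monocropped roots. Here the groups were apart and the log2 difference was 0.32 ± 0.13 (adjusted p of 0.434 in limma). Another (Zm.5206.1.S1_x_at) had a log2 difference of 0.26 ± 0.15, and the remaining ones had -0.03 ± 0.14 (Zm.5206.3.A1_a_at) and -0.26 ± 0.24 (Zm.5206.3.S1_at). In the last of these the signal of monocropped array 1 was 157, and that of the 5 other arrays lay between 80.4 and 102. The fructokinases had log2 differences of -0.24 ± 0.13 (frk2, Zm.711.1.S1_at) and -0.05 ± 0.29 (frk1), with groups that overlapped for both.

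Pyrophosphate-dependent phosphofructokinase, which interconverts fructose 6-phosphate and the bisphosphate that aldolase splits, entered the set because the term fructokinase stands inside its name. The probe set (Zm.16196.1.A1_at, similar to an alpha subunit of Arabidopsis) had signals of 803, 555 and 295 in intercropped roots, against 527, 245 and 328 in monocropped roots. Both groups spanned a wide range and overlapped, and the log2 difference was 0.54 ± 0.41 (adjusted p of 0.674 in limma). It ranged from 0.21 without intercropped replicate 1 to 0.94 without intercropped replicate 3.

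**Figure D3:**
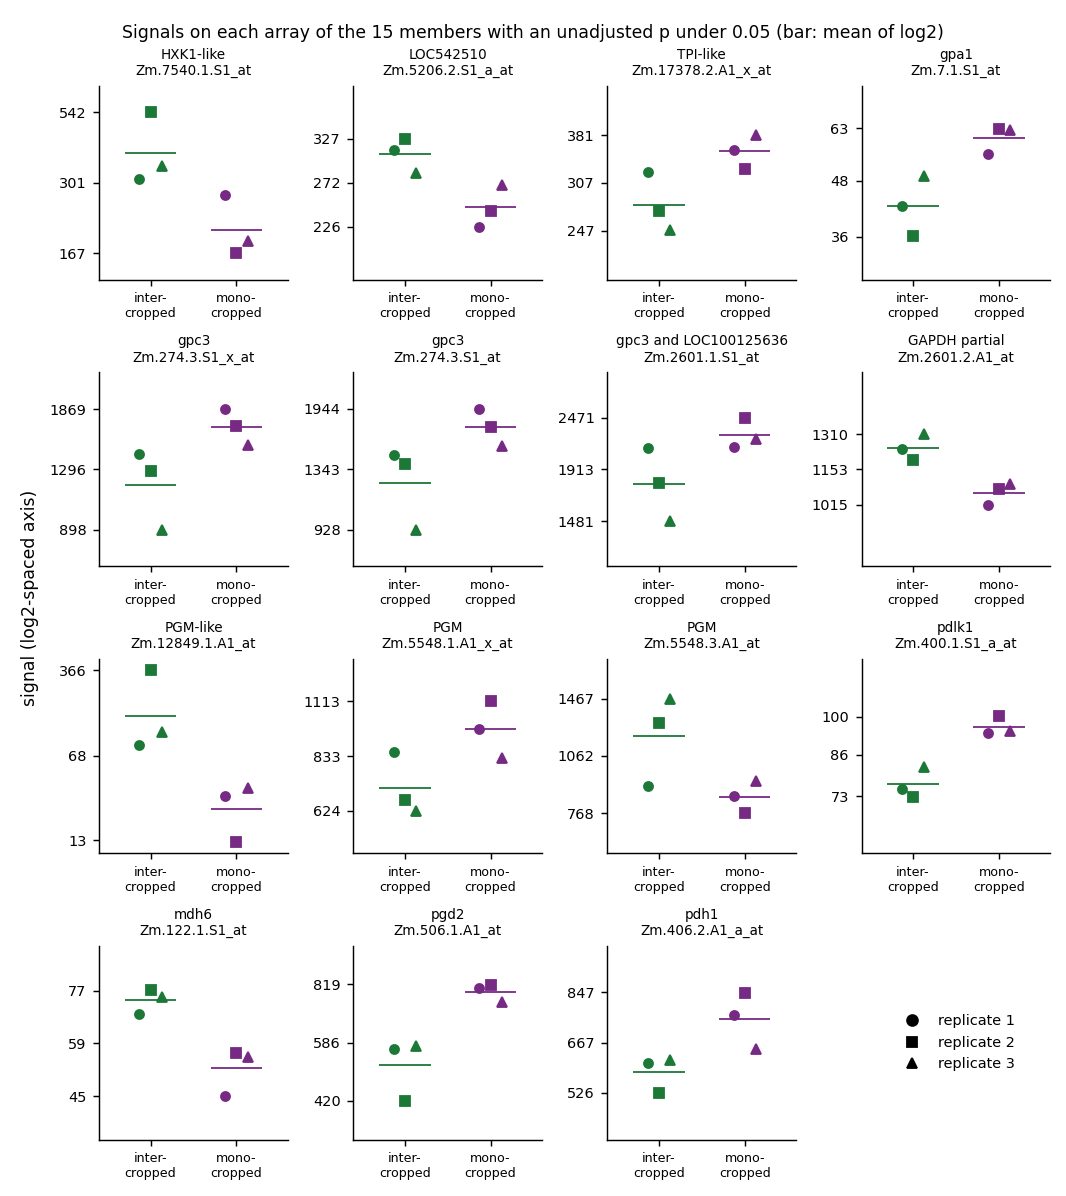
Signals on each array, on log2-spaced axes, of the 15 members with an unadjusted p under 0.05, with intercropped arrays on the left in green, monocropped arrays on the right in purple and a bar at the mean of the log2 values. The groups are apart for 13 of them and overlap for both phosphoglycerate mutase probe sets of the Zm.5548 cluster.

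Aldolase cuts the hexose bisphosphate into triose phosphates, and triosephosphate isomerase interconverts these. All 5 probe sets of this step were lower in intercropped roots, and the median difference was -0.14 (log2), or -0.081 without intercropped replicate 2 and -0.23 without intercropped replicate 1. The cytoplasmic aldolase ald1 (Zm.7177.1.A1_at) had signals of 3203, 2667 and 2676 in intercropped roots, against 3772, 3245 and 3129 in monocropped roots. Intercropped array 1 overlapped the monocropped range, and the log2 difference was -0.25 ± 0.11 (adjusted p of 0.49 in limma). The other probe sets of the same cluster had -0.14 ± 0.11 (Zm.7177.2.A1_a_at, -0.034 without intercropped replicate 2) and -0.13 ± 0.09 (Zm.7177.2.A1_x_at). For triosephosphate isomerase, a probe set similar to the chloroplast enzyme of Arabidopsis (Zm.17378.2.A1_x_at) had 322, 269 and 247 in intercropped roots, against 357, 327 and 381 in monocropped roots. Its groups were apart (log2 difference -0.35 ± 0.15, limma adjusted p = 0.444). The second probe set with that description (Zm.17378.1.S1_at) had a log2 difference of -0.06 ± 0.18.

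Glyceraldehyde-3-phosphate dehydrogenase is the oxidation step of glycolysis and made up 20 of the 78 members. Of these 12 were lower and 8 higher, and the median difference was -0.09 (log2). The gene gpc2 and its cluster had 10 probe sets, 9 of them with log2 differences between -0.14 and 0.10. The probe set that carries the gene symbol (Zm.16502.1.S1_at) had signals of 3601, 3919 and 4179 in intercropped roots, against 3957, 3856 and 3945 in monocropped roots. Its log2 difference was -0.01 ± 0.08. Over the cluster the median log2 difference was -0.05, 6 probe sets were lower and 4 higher, and none had an unadjusted p under 0.05 (limma). The exception was Zm.16502.4.A1_at, with 719, 1399 and 1401 in intercropped roots, against 493, 957 and 1025 in monocropped roots. Its groups overlapped, and it differed by 0.52 ± 0.36 (log2). The gene named GPC1 in the reference table (LOC542367) had 2431, 3326 and 3668 against 2691, 2893 and 3146 on Zm.3765.1.S1_s_at, with a log2 difference of 0.09 ± 0.16. On its second probe set (Zm.3765.2.S1_at) the log2 difference was -0.13 ± 0.15.

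The clusters of gpc3 and gpc4 differed more, with 4 of 6 probe sets lower and a median log2 difference of -0.42. On Zm.274.3.S1_at, titled gpc3, the signals were 1464, 1386 and 928 in intercropped roots, against 1944, 1738 and 1552 in monocropped roots. All 3 intercropped arrays were below all 3 monocropped ones, and the log2 difference was -0.49 ± 0.19 (adjusted p of 0.409 in limma), or -0.29 without intercropped replicate 3. A probe set of the same target with less specific probes (Zm.274.3.S1_x_at) had -0.51 ± 0.18, and -0.31 without that replicate. The title of this target names gpc3 while its description names GAPC4, so these probe sets cannot be given to 1 of the 2 genes. Zm.2601.1.S1_at, listed under gpc3 and a second gene, had 2123, 1790 and 1481 in intercropped roots, against 2133, 2471 and 2224 in monocropped roots. It differed by -0.35 ± 0.14 (log2, adjusted p of 0.43 in limma), with the groups barely apart, and -0.22 without intercropped replicate 3.

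The probe set with the symbol gpc4 (Zm.274.1.A1_at) had a wide spread, with signals of 2225, 994 and 697 in intercropped roots, against 1711, 1734 and 1923 in monocropped roots. The highest signal of all came from intercropped array 1 and the lowest from intercropped array 3. Its log2 difference was -0.63 ± 0.38 (adjusted p of 0.6 in limma), -1.10 without intercropped replicate 1 and -0.27 without intercropped replicate 3. In the same clusters, the probe sets without a gene symbol were higher with groups apart. Zm.2601.2.A1_at had 1242, 1193 and 1310 in intercropped roots, against 1015, 1073 and 1094 in monocropped roots, differing by 0.23 ± 0.10 (log2, adjusted p of 0.444 in limma). For Zm.274.2.S1_at the log2 difference was 0.08 ± 0.11, less than its error.

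Outside the cytosolic enzyme of glycolysis, gpa1 codes for a subunit of the chloroplast enzyme (Zm.7.1.S1_at). It had signals of 42.1, 36.1 and 49.3 in intercropped roots, against 55.0, 62.7 and 62.3 in monocropped roots. The log2 difference was -0.51 ± 0.18, or -0.31 with 32 added to the signal. All intercropped signals lay below 50 and gpa1 passed the filter only through the monocropped arrays, so its p and its separated groups are no evidence of a difference. The nonphosphorylating enzyme GPN1 had a log2 difference of 0.08 ± 0.15.

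**Figure D4:**
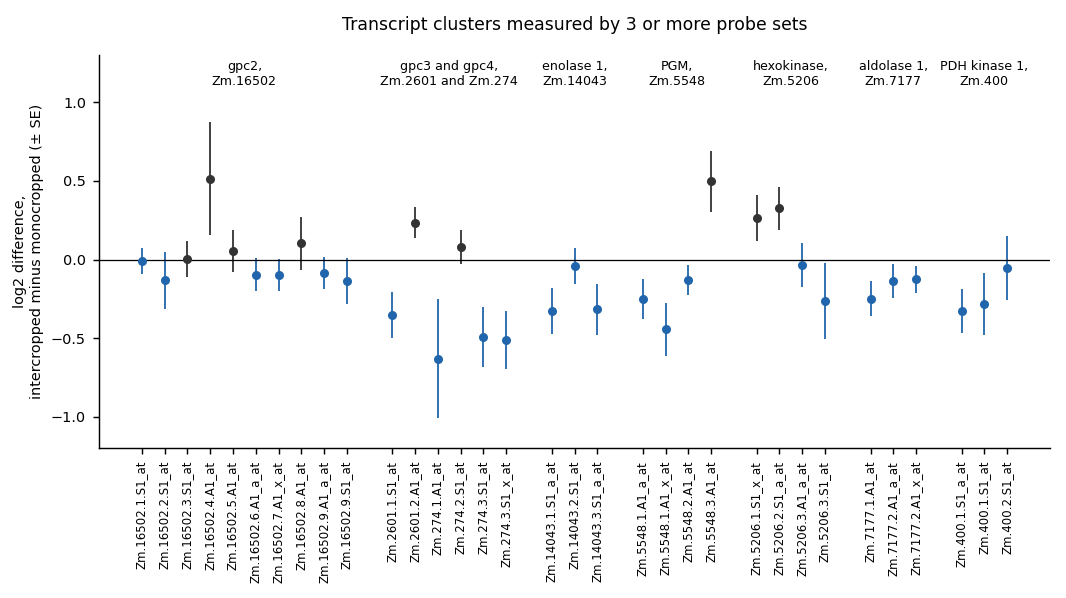
Log2 difference (intercropped minus monocropped) with its limma standard error for every probe set of the transcript clusters measured by 3 or more probe sets, with the smaller gpc3 cluster Zm.2601 drawn beside Zm.274, and with blue points below 0 and dark points at or above 0. The gpc2 probe sets lie near 0 apart from 1 with a wide error, most of the gpc3 and gpc4 probe sets lie lower, and the phosphoglycerate mutase and hexokinase clusters have probe sets on both sides of 0.

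Phosphoglycerate mutase moves the phosphate group so that enolase can form phosphoenolpyruvate. The largest difference of all members was in a probe set with moderate similarity to an Arabidopsis mutase of the kind that needs no bisphosphoglycerate (Zm.12849.1.A1_at). It had signals of 84.2, 366 and 109 in intercropped roots, against 30.7, 12.6 and 36.0 in monocropped roots. Every monocropped signal was below 50 and every intercropped one above it, and the means were 186 ± 156 and 26.4 ± 12.3 (SD, n = 3 each) in intercropped and monocropped roots. The probe set passed the filter only through the intercropped arrays, so its p is no evidence of a difference. The difference was 2.64 ± 0.61 (log2), 1.99 without intercropped replicate 2 and 1.70 with 32 added to the signal, so that its size is uncertain. The maize mutase gene itself (cluster Zm.5548) gave opposite values on its probe sets. Zm.5548.1.A1_x_at had 850, 661 and 624 in intercropped roots, against 960, 1113 and 827 in monocropped roots, differing by -0.44 ± 0.17 (log2, adjusted p of 0.4 in limma). Zm.5548.3.A1_at had 895, 1281 and 1467 in intercropped roots, against 846, 768 and 921 in monocropped roots, differing by 0.50 ± 0.19 (log2, adjusted p of 0.412 in limma). In both the groups overlapped at 1 array. The other 2 probe sets of the cluster had -0.25 ± 0.13 and -0.13 ± 0.10, so no direction can be given for this gene.

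Enolase 1 (eno1), an enzyme of the low-oxygen set, was measured by 3 probe sets, all lower. Zm.14043.1.S1_a_at had signals of 3627, 3351 and 2446 in intercropped roots, against 4033, 3696 and 3944 in monocropped roots. The groups were apart, and the log2 difference was -0.33 ± 0.15 (adjusted p of 0.484 in limma), or -0.16 without intercropped replicate 3. Zm.14043.3.S1_a_at had 2037, 1737 and 1309 against 2130, 1996 and 2101, with a log2 difference of -0.32 ± 0.16, or -0.14 without intercropped replicate 3, with intercropped array 1 inside the monocropped range. The probe set Zm.14043.2.S1_at had -0.04 ± 0.11. Enolase 2 (eno2, Zm.410.1.A1_at) had 2635, 2968 and 2270 against 2559, 2465 and 2495, with a log2 difference of 0.06 ± 0.11. The difference between eno1 and eno2, and that between gpc3 and gpc2, were not tested.

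Pyruvate kinase makes pyruvate and ATP from phosphoenolpyruvate, and the pyruvate dehydrogenase complex turns pyruvate into acetyl-CoA. Of the 13 probe sets here 11 were lower, and the differences ran from -0.36 to 0.08 with a median of -0.16 (log2). All 3 pyruvate kinase probe sets were lower, by log2 differences of -0.21 ± 0.15 (PK, Zm.7002.1.S1_at), -0.16 ± 0.14 (Umi5, Zm.5190.1.A1_at) and -0.12 ± 0.13 (Zm.17985.1.A1_at). For each of them the groups overlapped. The E1 alpha subunit of pyruvate dehydrogenase (LOC732791, Zm.4776.1.S1_at) had signals of 482, 313 and 330 in intercropped roots, against 462, 526 and 438 in monocropped roots. Intercropped array 1 lay within the monocropped range, and the log2 difference was -0.36 ± 0.19 (adjusted p of 0.541 in limma), or -0.56 without that array. Another probe set of the same gene (Zm.4776.2.A1_at) had -0.19 ± 0.16, with groups that overlapped. The 3 genes of E1 beta subunits had log2 differences of -0.29 ± 0.19 (pdh2), 0.08 ± 0.13 (LOC542483) and 0.03 ± 0.14 (LOC542607).

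Pyruvate dehydrogenase kinase switches the complex off by phosphorylation. All 5 of its probe sets were lower, and the median difference was -0.09 (log2). On Zm.400.1.S1_a_at the kinase gene pdlk1 had signals of 75.3, 73.0 and 81.9 in intercropped roots, against 93.6, 100 and 94.4 in monocropped roots. The spread within groups was small and the groups were apart (log2 difference -0.33 ± 0.14, limma adjusted p = 0.444). A second probe set of the gene (Zm.400.1.S1_at) had -0.28 ± 0.20 with groups that overlapped, and Zm.400.2.S1_at had -0.05 ± 0.20.

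Phosphoenolpyruvate carboxylase and malate dehydrogenase together make malate in the cytosol, and malic enzyme returns it to pyruvate. These 13 probe sets were evenly split, with 7 lower, 6 higher and a median log2 difference of -0.06. The cytoplasmic malate dehydrogenase mdh5 (Zm.5727.1.S1_a_at) had signals of 2643, 2402 and 2295 in intercropped roots, against 2677, 2645 and 2619 in monocropped roots, differing by -0.12 ± 0.09, or -0.071 without intercropped replicate 3. A second probe set of the cluster (Zm.5727.2.A1_at) had 91.3, 65.8 and 73.9 against 65.8, 171 and 169. It differed by -0.70 ± 0.37 (log2, adjusted p of 0.552 in limma), and -1.15 without monocropped replicate 1, whose signal was as low as the lowest intercropped one. The gene mdh2 (Zm.4892.1.A1_a_at), whose annotation here names no compartment, had a log2 difference of -0.06 ± 0.19.

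The gene mdh6, which codes for the NADP-dependent malate dehydrogenase of chloroplasts (Zm.122.1.S1_at), was the member of this group with the smallest p. It had signals of 68.4, 77.5 and 74.8 in intercropped roots, against 45.2, 56.3 and 55.0 in monocropped roots. The groups were apart, with means of 73.6 ± 4.63 in intercropped and 52.1 ± 6.07 in monocropped roots (SD, n = 3 each), and mdh6 was higher by 0.50 ± 0.16 (log2, adjusted p of 0.339 in limma), or 0.33 with 32 added to the signal. Of the 13 probe sets of green tissue, 8 were lower and 5 higher, and the median difference was -0.05 (log2).

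The carboxylase genes differed by no more than about their error. Ppc1C (Zm.800.1.S1_at) had signals of 1148, 1005 and 1008 in intercropped roots, against 1168, 1197 and 1079 in monocropped roots, differing by -0.13 ± 0.11. Its second probe set (Zm.800.2.A1_at) had -0.18 ± 0.18, which was -0.013 without intercropped replicate 2 and -0.28 without intercropped replicate 1. The gene listed as pep, described as the C3 type (Zm.167.1.A1_at), had 263, 254 and 176 against 219, 272 and 350, with a log2 difference of -0.28 ± 0.23, which was -0.09 without intercropped replicate 3 and -0.10 without monocropped replicate 3. The C4 carboxylase of leaves, pep1 (Zm.2433.1.S1_at), had 91.3, 74.2 and 93.9 against 39.4, 90.1 and 86.3. Its log2 difference of 0.35 ± 0.33 came from the low monocropped array 1 and was -0.04 without it. The root malic enzyme me2 (Zm.2939.2.A1_a_at) had 1576, 1996 and 1552 against 1711, 1479 and 1533, with a log2 difference of 0.11 ± 0.13. The chloroplast malic enzyme me3 (Zm.15.1.A1_at) had 0.00 ± 0.16, and its sign turned after quantile normalization (-0.03) and with equal array medians (-0.03).

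For the citrate and isocitrate steps of the citric acid cycle, 1 member was found by the terms used. This was a gene for NAD-dependent isocitrate dehydrogenase (LOC542698, Zm.14993.1.A1_at), while malate dehydrogenase, also of that cycle, is given above. It had signals of 113, 95.1 and 94.3 in intercropped roots, against 96.1, 99.1 and 98.9 in monocropped roots. The groups overlapped, with a log2 difference of 0.04 ± 0.14 that was near 0 with equal array medians. The off-pathway probe sets had log2 differences of -0.29 ± 0.24, with a value of -0.06 without intercropped replicate 3 (Zm.10300.1.S1_at, similar to phosphoglycerate dehydrogenase) and 0.13 ± 0.16 (Zm.18276.1.A1_at, similar to dihydroneopterin aldolase). The 39 members not chosen by the rule for named genes had log2 differences between -0.46 and 0.52, 26 lower and 13 higher, with unadjusted p of at least 0.0834 (limma).

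**Figure D5:**
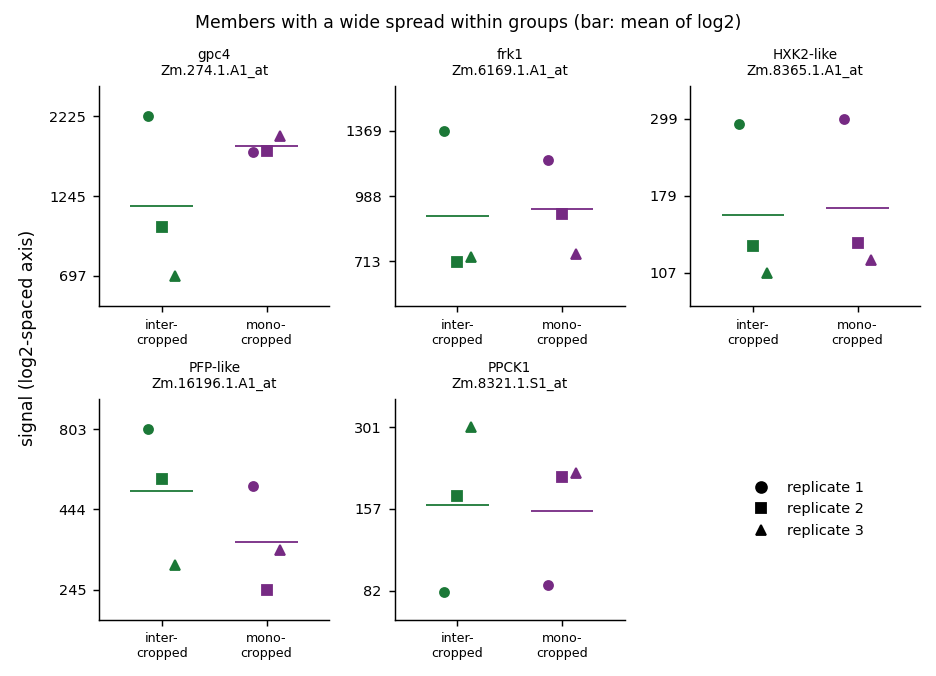
Signals on each array, on log2-spaced axes, of 5 members whose replicates were far apart, picked after their values were seen. Intercropped arrays are on the left in green, monocropped arrays on the right in purple, with a bar at the mean of the log2 values. For frk1, the hexokinase 2-like probe set and the phosphofructokinase-like (PFP) probe set both arrays numbered 1 are the highest of their group, for PPCK1 both are the lowest, and for gpc4 array 1 is the highest in the intercropped group and the lowest in the monocropped one.

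Other enzymes that feed or drain these pathways, from sucrose synthase to the alternative oxidase, were held by 42 further probe sets. Limma called 0 of them, and 10 (23.8%) had an unadjusted p under 0.05, 7 lower and 3 higher in intercropped roots. The background was 11.1% of all tested probe sets, with 5.51% lower and 5.6% higher. The median log2 difference was 0.00, with 20 lower and 22 higher. The 4 smallest p belonged to alcohol dehydrogenase names. Of these adh2, which makes ethanol from acetaldehyde (Zm.2859.1.A1_a_at), had signals of 873, 710 and 1100 in intercropped roots, against 1471, 1864 and 1257 in monocropped roots, differing by -0.78 ± 0.20 (log2, adjusted p of 0.274 in limma). A putative alcohol dehydrogenase, named from an Arabidopsis protein (Zm.18091.1.A1_at), had -0.49 ± 0.12 (adjusted p of 0.235 in limma). A pair of probe sets similar to a short chain alcohol dehydrogenase had -1.24 ± 0.24 and -1.06 ± 0.20 (adjusted p of 0.201 for each in limma), and the annotation does not say that this protein acts in fermentation. All intercropped arrays were below all monocropped ones for these 4 probe sets, which were picked by their p. The same held for 8.69% of all tested probe sets. The other fermentation genes of the list did not share 1 direction. For adh1 the log2 differences were -0.13 ± 0.12 (Zm.1540.1.S1_a_at), 0.10 ± 0.13 (Zm.2196.1.A1_at) and 0.03 ± 0.23 (Zm.4845.1.S1_x_at). Pyruvate decarboxylase, which supplies the acetaldehyde, had -0.30 ± 0.12 for pdc3 (Zm.3994.1.S1_at), -1.25 ± 1.26 for pdc1 (Zm.166.2.A1_a_at) and 0.12 ± 0.29 for pdc2 (Zm.10317.1.S1_at). The gene LOC542471 had 0.16 ± 0.37 (Zm.14518.1.S1_at), and a probe set shared with pdc2 had 0.01 ± 0.25 (Zm.14518.1.S1_s_at).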

How the data were processed

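Biotin-labelled cRNA from total root RNA (TRIzol, per the labels' protocols) was hybridised to Affymetrix maize arrays, 1 per sample. The authors deposited intensity values per probe set on a linear scale, already summarised and scaled. The submitters' processing notes name GCOS 1.4, while the summary algorithm and target level are not stated in those notes. A change of all transcripts in 1 direction cannot be seen in scaled values. The authors' deposited filtered table holds log2 of these values (largest difference 3.6e-15). Per the file headers, the authors' SAM output gives a score, a numerator, a fold change and a q-value in percent, from an unpaired comparison with 100 permutations. From its values, the numerator is read here as a log2 difference and the fold change as a linear ratio.

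Here, 179 control probe sets were left out, and a floor of 1 was applied to the signals before taking log2. Probe sets with a signal of at least 50 on at least 3 arrays were tested with limma 3.58.1 in R 4.3.3 (eBayes with its trend option on) in two-sided form, and p was adjusted over all 13116 by Benjamini-Hochberg. The fit was checked on simulated data. The median standard error was 0.18 (log2), and the number of arrays limits the precision. Of 35 distinct gene IDs of members, 33 were matched to RefSeq's maize genes (Zm-B73-REFERENCE-NAM-5.0, names only), and 28 members had no gene symbol. Gene names are those of an old annotation, and similar gene copies can share probes, above all on probe sets ending in _x_at or _s_at, of which there were 7. Signals of different probe sets were not compared. Roles were assigned by name, with phosphofructokinase set apart after the table was opened. Named members were, per role, the 2 with the smallest p, all with an unadjusted p under 0.05, and those with symbols of 7 enzyme families, and PPCK1, frk1 and others outside this rule were picked after their values were seen. Of the further pathway genes the 4 with the smallest p were named. The members and the lists were chosen with earlier results of these data known. Alternatives were other normalizations, filters, a pseudocount of 32, variance models, a replicate block, leaving out arrays, 1 probe set per gene symbol and leaving out off-pathway names. A planned description of protein and promoter sequences was not made, because no sequences were in the tables used here. Same-numbered arrays were not paired by the labels, and their deviations from the group means correlated at 0.27, -0.07 and -0.00 (replicates 1, 2 and 3). Pairs of differently numbered arrays ran from -0.30 to 0.33, a range that holds these values.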

Additional observations from a re-analysis of the deposited data

How the results depend on the processing

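The 15 members with an unadjusted p under 0.05 kept their direction under all alternatives run, and no member was called in any. These members were picked by p in the same arrays. For the 13 with groups apart, leaving out arrays could not turn the direction, so a kept direction there adds no support. Over all tested probe sets, 1 was called with 32 added to the signal, and between 0 and 34 with arrays left out (34 without intercropped replicate 1). The count of members with an unadjusted p under 0.05 and groups apart, 13, was 7 with the replicate block and between 4 and 23 with arrays left out. It was 11 without the probe sets that reached 50 in 1 group only, a setting added after seeing the data. For the counts with the replicate block and with arrays left out, the share over all tested probe sets is not given. They therefore do not show a change particular to the members. Groups of fewer arrays also lie apart more easily. The block, in samples that share only a number, changed no other call. The median of the members ran from -0.17 to -0.054 with arrays left out. That of the further pathway genes ran from -0.074 to 0.022 with single arrays left out and was -0.062 without both arrays numbered 1, a setting chosen after seeing the data, so it has no settled sign. The sign of 8 named members turned, 7 of them near 0 and pep1 at 0.35. For me3 it was -0.031 after quantile normalization and -0.034 with equal array medians, and for LOC542698 -0.00029 with equal array medians. With single arrays left out, me3 ran from -0.079 to 0.11, LOC542698 from -0.049 to 0.081, gpc2 from -0.061 to 0.046, pep1 from -0.036 to 0.56 and me2 from -0.0070 to 0.17. Likewise LOC542367 (Zm.3765.1.S1_s_at) ran from -0.030 to 0.27, eno2 from -0.035 to 0.16 and mdh2 from -0.27 to 0.061. Without both arrays numbered 1, LOC542698 was -0.064, gpc2 0.053 and pep1 -0.079. The cause of these turns was not tested. Signals near or below 50 limit gpa1, mdh6, pep1 and the mutase-like probe set, among other members, and pdc1 of the further pathway genes.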

Other observations

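Several members differed more between replicates than between cropping treatments, and they were picked after their values were seen. A probe set with weak similarity to hexokinase 2 of Arabidopsis (Zm.8365.1.A1_at) had signals of 288, 128 and 107 on intercropped arrays 1, 2 and 3, against 299, 130 and 116 on monocropped arrays 1, 2 and 3. The fructokinase frk1 (Zm.6169.1.A1_at) had 1369, 713 and 729 on the intercropped arrays, against 1185, 905 and 740 on the monocropped arrays. In both, the arrays numbered 1 were the highest of their group. The opposite held for PPCK1 (Zm.8321.1.S1_at), the kinase that phosphorylates phosphoenolpyruvate carboxylase, with 81.5, 174 and 301 on the intercropped arrays, against 86.1, 202 and 210 on the monocropped arrays. It also held for a probe set of the gpc2 cluster (Zm.16502.4.A1_at), with 719, 1399 and 1401 on the intercropped arrays, against 493, 957 and 1025 on the monocropped arrays. Pyruvate decarboxylase 1, an enzyme of ethanol fermentation (pdc1, Zm.166.2.A1_a_at), is not a member but one of the further pathway genes. It had its highest signals on the arrays numbered 1, with 203, 9.78 and 14.9 on the intercropped arrays, against 212, 94.6 and 19.9 on the monocropped arrays. On the gpc2 cluster probe set each intercropped array was above the monocropped array of the same number, and the log2 difference was 0.52 ± 0.36. How often both arrays numbered 1 are highest or lowest of their group, over the members or over all tested probe sets, was not counted. These examples therefore show no effect of the replicate number. The labels do not say what the replicate numbers mark.

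Further pathway genes with an unadjusted p under 0.05 lie outside the rule for named genes, and those given here were picked after their values were seen. Sucrose synthase splits sucrose to feed hexoses into glycolysis, and sus2 (Zm.3478.1.S1_a_at, described as sucrose synthase 3) had signals of 935, 2218 and 1576 in intercropped roots, against 975, 551 and 776 in monocropped roots. Its log2 difference was 0.99 ± 0.33 (adjusted p of 0.354 in limma), and intercropped array 1 overlapped the monocropped range. The gene sus1 had a log2 difference of -0.05 (Zm.3550.1.A1_at). A sucrose synthase probe set without a symbol (Zm.6977.4.A1_at) was higher by 0.41 ± 0.16 (log2, adjusted p of 0.402 in limma), with groups apart. Others of its cluster are not given here. A probe set similar to a chloroplast phosphoglucomutase (Zm.2269.1.S1_at) was higher by 0.49 ± 0.18 (log2), also with groups apart. Its monocropped signals were all below 50. It passed the filter only through the intercropped arrays, so its p is no evidence of a difference. The plastid transporter pOMT1, which exchanges oxoglutarate and malate (Zm.17178.1.A1_at), had 210, 131 and 143 in intercropped roots, against 214, 320 and 280 in monocropped roots. All intercropped arrays were lower, by a log2 difference of -0.76 ± 0.23 (adjusted p of 0.317 in limma). Pyruvate decarboxylase 3, the step before alcohol dehydrogenase in fermentation (pdc3, Zm.3994.1.S1_at), had 1687, 1593 and 1655 in intercropped roots, against 2263, 2111 and 1740 in monocropped roots. Its log2 difference was -0.30 ± 0.12 (adjusted p of 0.418 in limma). A transketolase-like probe set (Zm.1422.1.A1_at) had -0.40 ± 0.17 (adjusted p of 0.45 in limma), and its groups overlapped.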
